A study of Homo sapiens with 10 samples.

Results

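The genes described here are 53 genes of mitosis, the kinetochore and the spindle, chosen by gene symbol. Of these, 48 had an array probe that the annotation gives to that gene alone, out of 14232 genes with such a probe, and for a gene with several probes the one with the highest mean was used. The probes of BUB1B, CENPN, KIF20A, KIF23 and KIF4A carry a further gene symbol, so no level is given for these 5 genes. All 48 measured genes lay above the filter on low signal, and 11198 genes in all did.

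The cells were DLD-1, a human colorectal cancer line, and LMNB1, the gene of the nuclear lamina protein lamin B1, was knocked down with short hairpin RNA (shRNA). Construct V2LHS_62673 was present in 3 single-cell clones (8, 9 and 12) and construct V2LHS_62675 in 1 clone, called clone 2 here, of which 3 arrays were averaged to 1 sample. The controls were wild type cells, 1 array, which were not transfected, and 3 clones with an empty vector, numbered 1 to 3. All cultures but the wild type were kept in puromycin, so hairpin and empty vector clones share transfection, selection and single-cell cloning, and wild type cells share none of these. Wild type cells are 1 sample and construct V2LHS_62675 is 1 clone, so for both no spread between clones could be measured. The titles and descriptions of these 3 arrays disagree on the number of the clone (12 in the titles, 2 in the descriptions). Over all probes array 1 correlated at 0.988 with both array 2 and array 3, which correlated with each other at 0.9945. With wild type cells, empty vector clone 1 and clones 9 and 12, array 1 correlated at 0.989 to 0.991. Arrays 2 and 3 correlated with wild type cells at 0.991 and 0.993, above their 0.988 with array 1. Levels on each array of clone 2 are therefore given for the genes described in every sample. Differences and counts by array or without array 1 are given for some results only.

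Entry into mitosis is driven by cyclin-dependent kinase 1 with cyclins A and B. The transcripts of most mitotic genes are low after division and reach their peak in G2 and mitosis, under the control of the MuvB core with B-MYB and FOXM1, so their level in a culture generally goes with the share of cells in these phases. Chromosomes are then held by kinetochores on spindle microtubules, a checkpoint delays anaphase until all are attached, and kinesins and the central spindle complete division. In a bulk culture, fewer cells in mitosis and less RNA per mitotic cell cannot be told apart.

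The promoters of such genes often hold the cell cycle homology region (CHR), read here as the letters TTTGAA or TTCGAA, and the letters CCAAT, a binding site of NF-Y, both searched on both strands with overlaps counted. Promoter windows from RefSeq (GRCh38.p14, 250 bases before to 50 after the start) were found for 45 of the 53 genes, and the table holds none for AURKA, BIRC5, BUB3, FOXM1, KNTC1, TPX2, TTK and UBE2C. CHR letters stood in 31 of the 45 windows (68.9%), against 16.6% of all 27305 windows. CCAAT letters stood in 34 (75.6%), against 35.7% of all windows, and both kinds in 26 (57.8%), against 6.58%. A match to these letters is a description and not a shown binding site. The stretches printed here are the 160 bases before the start, 5′ to 3′ on the gene's strand with the matching letters in capitals, for the genes that passed a test and have an entry, and for CDC20 and TOP2A, whose CHR and CCAAT letters lie 4 bases apart. PLK1 lies at chr16:23678729-23678888 on the plus strand, CDCA8 at chr1:37692356-37692515 (plus), KIF18A at chr11:28108157-28108316 (minus), CENPF at chr1:214603035-214603194 (plus), PTTG1 at chr5:160421695-160421854 (plus), AURKB at chr17:8210226-8210385 (minus), CHAMP1 at chr13:114314343-114314502 (plus), CDC20 at chr1:43358821-43358980 (plus) and TOP2A at chr17:40417897-40418056 (minus).
PLK1: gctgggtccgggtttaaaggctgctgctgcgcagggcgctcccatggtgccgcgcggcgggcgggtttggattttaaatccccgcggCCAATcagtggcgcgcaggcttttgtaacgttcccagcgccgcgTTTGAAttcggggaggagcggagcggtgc
CDCA8: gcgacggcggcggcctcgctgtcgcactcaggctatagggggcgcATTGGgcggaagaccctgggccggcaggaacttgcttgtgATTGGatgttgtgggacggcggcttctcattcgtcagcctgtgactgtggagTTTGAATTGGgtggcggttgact
KIF18A: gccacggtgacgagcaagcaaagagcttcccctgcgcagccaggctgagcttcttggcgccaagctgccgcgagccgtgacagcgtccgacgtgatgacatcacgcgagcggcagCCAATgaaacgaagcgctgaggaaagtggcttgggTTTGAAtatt
CENPF: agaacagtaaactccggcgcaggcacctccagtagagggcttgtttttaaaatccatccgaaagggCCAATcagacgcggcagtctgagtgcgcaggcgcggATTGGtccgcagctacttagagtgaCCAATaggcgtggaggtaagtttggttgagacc
PTTG1: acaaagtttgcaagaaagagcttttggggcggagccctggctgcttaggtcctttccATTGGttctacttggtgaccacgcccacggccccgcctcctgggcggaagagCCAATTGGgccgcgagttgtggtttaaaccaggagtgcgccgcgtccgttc
AURKB: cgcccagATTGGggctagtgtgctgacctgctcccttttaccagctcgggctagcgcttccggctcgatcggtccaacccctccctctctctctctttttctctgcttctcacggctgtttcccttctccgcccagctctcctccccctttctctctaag
CHAMP1: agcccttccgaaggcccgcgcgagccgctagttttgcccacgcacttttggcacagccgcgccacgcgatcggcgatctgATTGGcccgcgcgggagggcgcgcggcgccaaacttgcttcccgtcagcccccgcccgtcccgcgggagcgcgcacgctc
CDC20: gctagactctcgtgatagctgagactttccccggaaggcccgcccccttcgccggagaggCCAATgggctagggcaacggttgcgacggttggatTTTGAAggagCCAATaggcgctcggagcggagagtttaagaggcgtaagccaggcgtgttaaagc
TOP2A: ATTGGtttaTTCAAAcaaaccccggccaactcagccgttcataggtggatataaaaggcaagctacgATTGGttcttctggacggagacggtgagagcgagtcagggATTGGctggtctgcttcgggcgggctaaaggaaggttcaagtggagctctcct
The stretches of PLK1, CDCA8 and KIF18A hold both kinds of letters, and in CDCA8 they overlap. Those of CENPF, PTTG1, AURKB and CHAMP1 hold CCAAT without CHR. The full window of CENPF holds CHR letters 40 bases after the start, outside the printed stretch, so CENPF counts among the genes with CHR.

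Clone 8 stood apart on the whole array. It correlated with the other 9 at 0.915 to 0.926 over all probes, while the highest correlation of each other array was 0.991 to 0.995. Its median log2 level was 7.62, against 7.34 to 7.41 on the others. Every comparison is therefore given with and without clone 8. The probe for the target, which is shared by LMNB1 and PCIF1, read 7.79, 7.70 and 7.45 in clones 8, 9 and 12 and 7.72, 7.72 and 7.56 on the arrays of clone 2, against 9.52 in wild type cells and 8.93, 9.17 and 8.84 in the empty vector clones. All 4 hairpin clones were thus below all 4 controls, clone 8 included. Of 10 colon epithelium markers 9 passed the filter, and KRT20, a keratin of differentiated colon cells, lay below it on every array. Mesenchymal markers had a median of 6.71 to 6.93 outside clone 8, above the filter of 5.95, and 4 of 6 passed it. Leukocyte and endothelial markers had medians of 5.30 to 5.52 and 5.73 to 5.89 outside clone 8, below the filter. In each of these lists 2 of 4 measured genes passed the filter, with CD14 and VWF the highest.

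Set against the mean of the empty vector clones, the 48 genes as a group were lower in clone 8, higher in wild type cells and clone 2, and in between in clones 9 and 12. Their median log2 difference was -0.51 in clone 8, with 12 of 48 genes higher. It was 0.07 in clone 9 (34 higher), 0.17 in clone 12 (36 higher) and 0.27 in clone 2 (45 higher). In wild type cells it was 0.29, with 45 higher. The median over all 11198 genes was 0.18 in clone 8 and between -0.01 and 0.03 in every other sample. In clone 8 the median of the 48 genes was thus opposite in sign to that of all genes. Across all genes the difference of clone 8 fell with level (Spearman correlation -0.61), and the 48 genes were not set against genes of like level. The empty vector clones themselves stood at 0.13, 0.00 and -0.14 (SD 0.14 over the 3), with 43, 26 and 3 genes above their common mean.

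**Figure D1:**
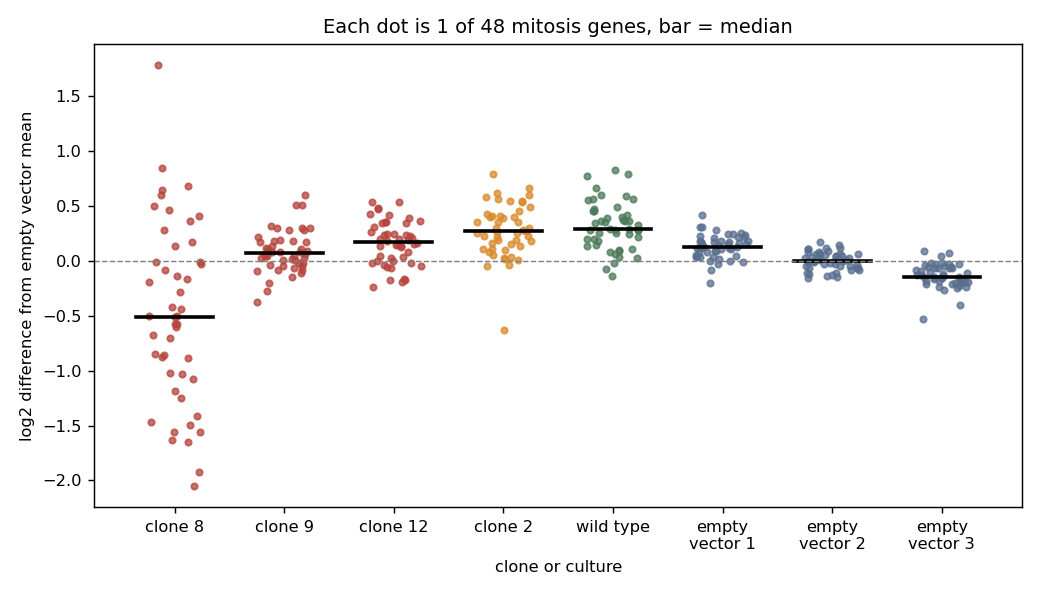
Log2 difference of each of the 48 mitosis genes (dots) from the mean of the 3 empty vector clones (y axis), for each clone or culture (x axis), with the median as a bar. The medians are -0.51 in clone 8, 0.07 to 0.27 in the other hairpin clones, 0.29 in wild type cells and 0.13, 0.00 and -0.14 in the empty vector clones.

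The empty vector clones differed among themselves in a way that ran through most of these genes. Clone 1 was the highest of the 3 for 38 of the 48 genes, an order that 28.4% of all genes have. Clone 3 was the lowest for 35 of them, against 29.9% of all genes, and 29 followed the whole order 1, 2, 3, against 16.9%. SPC25, a subunit of the NDC80 complex that binds microtubules, spread most, at 7.37, 7.05 and 6.42 in empty vector clones 1, 2 and 3. CCNB2, a B-type cyclin, spread least, at 11.22, 11.16 and 11.15. Differences from the empty vector mean are therefore read beside the level of each of these clones.

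**Figure D2:**
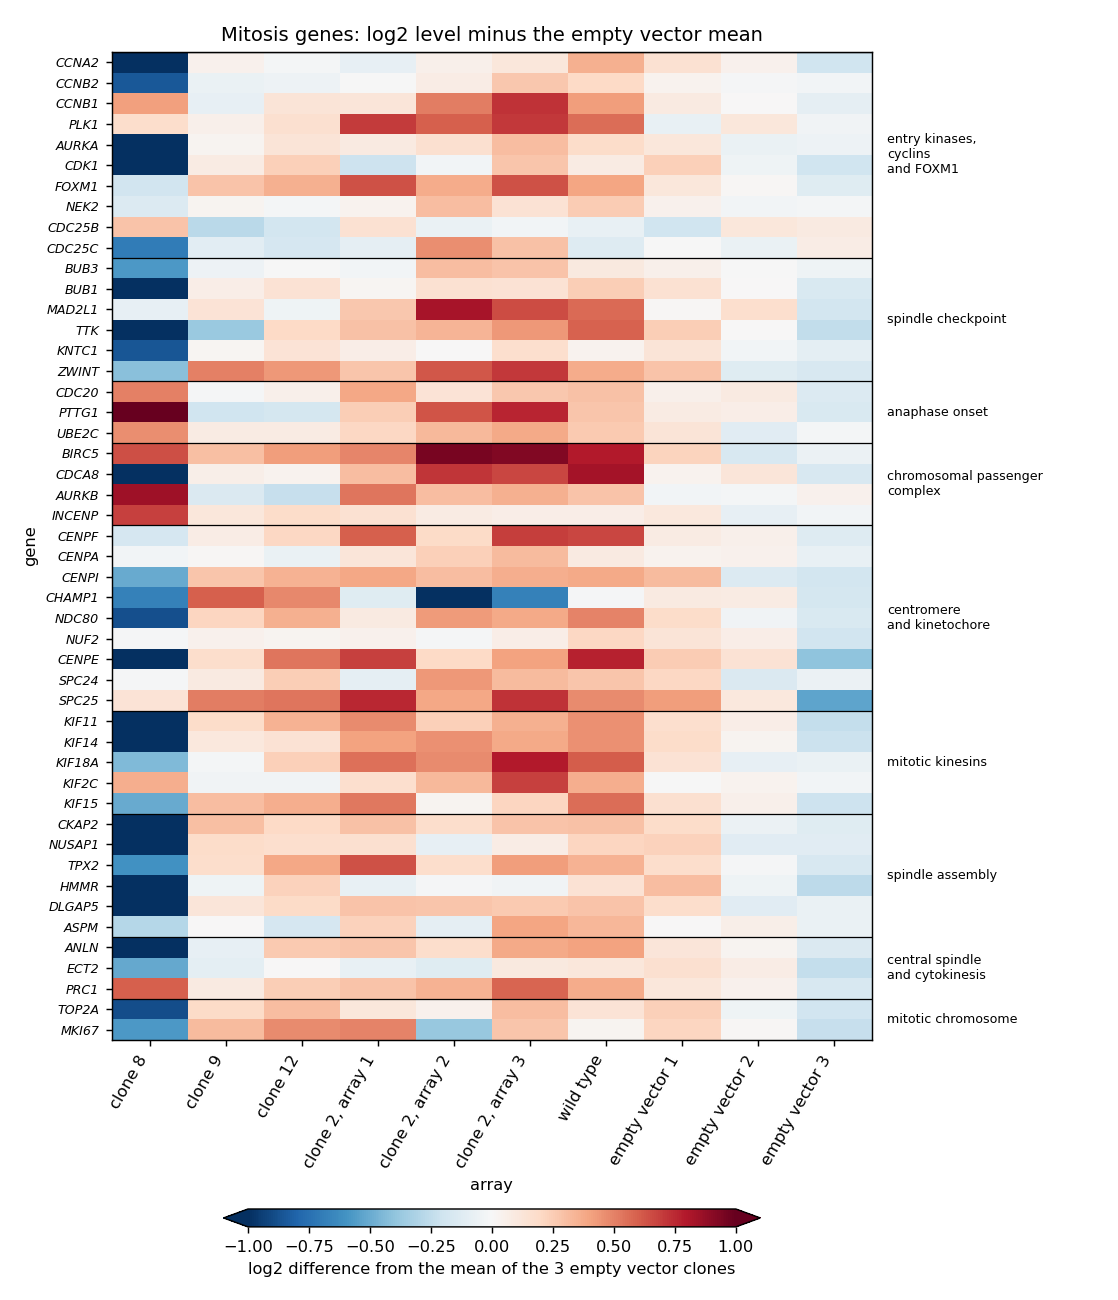
Log2 level of each of the 48 mitosis genes (rows, grouped by role) minus its mean over the 3 empty vector clones, on each of the 10 arrays (columns), with red higher and blue lower and colours capped at 1. Clone 8 is blue for most roles but red for the anaphase onset genes and for 3 of the 4 chromosomal passenger genes. Clone 2 and wild type are red for most rows, and CHAMP1 is blue in clone 2.

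The first comparison asked whether loss of lamin B1 went with a common change of the mitosis genes, over the 4 hairpin clones and the 4 controls. With clone 8 the genes were split, 19 of 48 higher with a median log2 difference of -0.05, beside 0.04 over all genes tested. None of the 48 passed in limma at an adjusted p of 0.05, as was so for 0% of all features, and 0 had an unadjusted p under 0.05, which 2.29% of all features had. The hairpin clones overlapped the controls for all 48 genes, where 1.6% of all genes lay fully above and 1.54% fully below. Without clone 8, 38 of 48 were higher, with a median of 0.09 beside 0.01 over all genes. Again 0 passed in limma, and 3 genes, all higher, had an unadjusted p under 0.05, where 6.47% of all features did in either direction and 3.15% on the higher side. They were ZWINT, MKI67 and FOXM1. Clones 9 and 12 and the mean of clone 2 lay above all 3 empty vector clones, wild type aside, for 9 genes. These were FOXM1, ZWINT, BIRC5, NDC80, SPC25, KIF11, KIF15, TPX2 and CKAP2, an order that 8.57% of all genes have. They lay below all 3 for none of the 48, against 8.81% of all genes.

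ZWINT, which anchors the checkpoint complex RZZ at the kinetochore, read 8.00, 8.93 and 8.85 in clones 8, 9 and 12 and 8.70, 9.04 and 9.13 on the arrays of clone 2, against 8.79 in wild type cells and 8.71, 8.30 and 8.26 in the empty vector clones. Clone 8 was the lowest of all samples, while clones 9 and 12 and the mean of clone 2 lay above every control. Array 1 of clone 2 was below wild type cells and, by a small margin, below empty vector clone 1. Without clone 8 the mean was 8.91 ± 0.05 in hairpin clones (SD, n = 3) and 8.51 ± 0.27 in controls (n = 4), a log2 difference of 0.40 (SE 0.14) with a limma adjusted p of 0.725. With clone 2 as its mean, SPC25 was the only other gene whose groups did not overlap without clone 8, where 3.46% of all genes lay fully above. It read 7.09, 7.46 and 7.48 in clones 8, 9 and 12 and 7.70, 7.33 and 7.67 on the arrays of clone 2, against 7.42 in wild type cells beside the empty vector levels above. Array 2 of clone 2 was below wild type cells and empty vector clone 1. The difference of SPC25 without clone 8 was 0.44 (SE 0.21, limma adjusted p = 0.779).

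MKI67, the chromosome surface protein Ki-67 and a common marker of cycling cells, read 9.49, 10.38 and 10.54 in clones 8, 9 and 12 and 10.56, 9.69 and 10.34 on the arrays of clone 2, against 10.09 in wild type cells and 10.28, 10.08 and 9.84 in the empty vector clones. Clones 9 and 12 were above all controls, clone 8 below all of them, and the arrays of clone 2 lay on both sides of the whole range of the controls. Without clone 8 the difference was 0.30 (SE 0.12, limma adjusted p = 0.75). TOP2A, the topoisomerase that untangles sister chromatids, read 10.14, 11.22 and 11.34 in clones 8, 9 and 12 and 11.15, 11.07 and 11.34 on the arrays of clone 2, against 11.16 in wild type cells and 11.27, 10.98 and 10.84 in the empty vector clones. Clone 8 was the lowest of all arrays, and the other samples of its groups overlapped.

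The second comparison set clone 2 of construct V2LHS_62675 against the empty vector clones. Most of the mitosis genes were higher in clone 2, with 45 of 48 above the empty vector mean and a median log2 difference of 0.27, beside 0.02 over all genes. On arrays 1, 2 and 3 alone, 39, 39 and 45 of the 48 were higher, with medians of 0.24, 0.24 and 0.34. The mean of clone 2 lay above all 3 empty vector clones for 35 of them, an order that 32% of all genes have, and below all 3 for CHAMP1 alone, an order that 25.2% of all genes have. In 21 genes all 3 arrays of clone 2 were above all 3 empty vector clones, against 13.4% of all genes. With clone 8 in the fit, which gave PLK1 an SE of 0.20 in place of 0.13, 0 of the 48 passed in limma (0% of all features) and 3 had an unadjusted p under 0.05 (2.63% of features). Without it, 6 genes rose and 1 fell, 7 of 48, where 3.74% of all features passed, 1.55% higher and 2.19% lower. An unadjusted p under 0.05 was found for 18 genes higher and 1 lower, beside 9.88% and 8.3% of all features (18.2% in all).

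PLK1, the polo-like kinase of mitotic entry and spindle formation, read 10.90, 10.80 and 10.91 on the arrays of clone 2, against 10.12, 10.32 and 10.16 in the empty vector clones. No array of clone 2 came near an empty vector clone, while clones 8, 9 and 12, at 10.38, 10.25 and 10.36, did. Wild type cells, at 10.76, were close to clone 2. PLK1 rose by 0.67 in clone 2 (SE 0.13, limma adjusted p = 0.0206 without clone 8), a fold of 1.59. FOXM1, the transcription factor of G2 and M phase genes, read 9.88, 9.61 and 9.88 on the arrays of clone 2, against 9.36, 9.25 and 9.12 in the empty vector clones. It rose by 0.55 (SE 0.13, adjusted p = 0.0436) in the same limma fit, and clones 9 and 12, at 9.53 and 9.60, and wild type cells, at 9.64, were also above all empty vector clones, with clone 8 below them at 9.05.

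BIRC5 and CDCA8 encode survivin and borealin, which bring Aurora B to the centromere. BIRC5 read 9.78, 10.24 and 10.21 on the arrays of clone 2, against 9.50, 9.13 and 9.22 in the empty vector clones, and rose by 0.79 (SE 0.15, limma adjusted p = 0.0215 without clone 8). Every hairpin clone was above every empty vector clone for this probe, with clones 8, 9 and 12 at 9.93, 9.59 and 9.70. Wild type cells, at 10.08, were also above every empty vector clone. A second BIRC5 probe of lower signal read 6.92, 6.88 and 6.92 in clone 2, against 6.73, 6.80 and 6.96, so that it differed by 0.07 only and its groups overlapped. CDCA8 read 9.26, 9.66 and 9.62 on the arrays of clone 2, against 8.99, 9.07 and 8.79 in the empty vector clones, and rose by 0.57 (SE 0.13, adjusted p = 0.0446 in the same limma fit). Clones 9 and 12, at 9.01 and 8.98, lay within the empty vector range, and clone 8 was far below at 7.39. Wild type cells, at 9.78, were above every array of clone 2.

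PTTG1, or securin, which holds separase inactive until anaphase, read 9.69, 10.07 and 10.21 on the arrays of clone 2, against 9.53, 9.51 and 9.29 in the empty vector clones. Wild type cells were at 9.72. Clones 9 and 12 went the other way from clone 2, at 9.25 and 9.27, just below all empty vector clones, and clone 8 was the highest of all arrays at 11.23. In clone 2 it rose by 0.55 (SE 0.13, limma adjusted p = 0.0456 without clone 8). KIF18A, the kinesin that damps chromosome oscillation at plus ends, read 8.31, 8.23 and 8.55 on the arrays of clone 2, against 7.90, 7.68 and 7.70 in the empty vector clones. All 3 arrays were above all empty vector clones, and it rose by 0.61 (SE 0.14, adjusted p = 0.0458 in the same limma fit). For KIF18A clones 8, 9 and 12 were at 7.32, 7.74 and 8.00, and wild type cells at 8.37.

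CHAMP1, a zinc finger protein of the spindle and kinetochore that takes part in chromosome alignment, read 8.71, 7.75 and 8.16 on the arrays of clone 2, against 8.93, 8.92 and 8.66 in the empty vector clones. Arrays 2 and 3 were below every empty vector clone and array 1 was within their range, so the repeats of this clone disagreed more than the 3 empty vector clones did. It fell by 0.63 (SE 0.14, limma adjusted p = 0.0371 without clone 8). Without array 2 the difference was -0.40 with an adjusted p of 0.148, and without array 1 it was -0.88.

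The number of calls moved with single samples, for all features as for these genes. Without empty vector clone 2 or without clone 3, 0 of the 48 genes passed in limma (0.643% and 0.625% of all features). There 16 and 17 genes had an unadjusted p under 0.05. The share of all features past it in these fits is not given, and it was 18.2% with all 3 empty vector clones. Without empty vector clone 1, 10 passed (5.54%). Without array 1 of clone 2, 11 passed (9.12%), and without array 3, 3 passed (2.44%). The differences themselves moved less, over all alternatives without clone 8 from 0.61 to 0.73 for PLK1, 0.71 to 0.94 for BIRC5 and 0.51 to 0.68 for KIF18A.

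**Figure D3:**
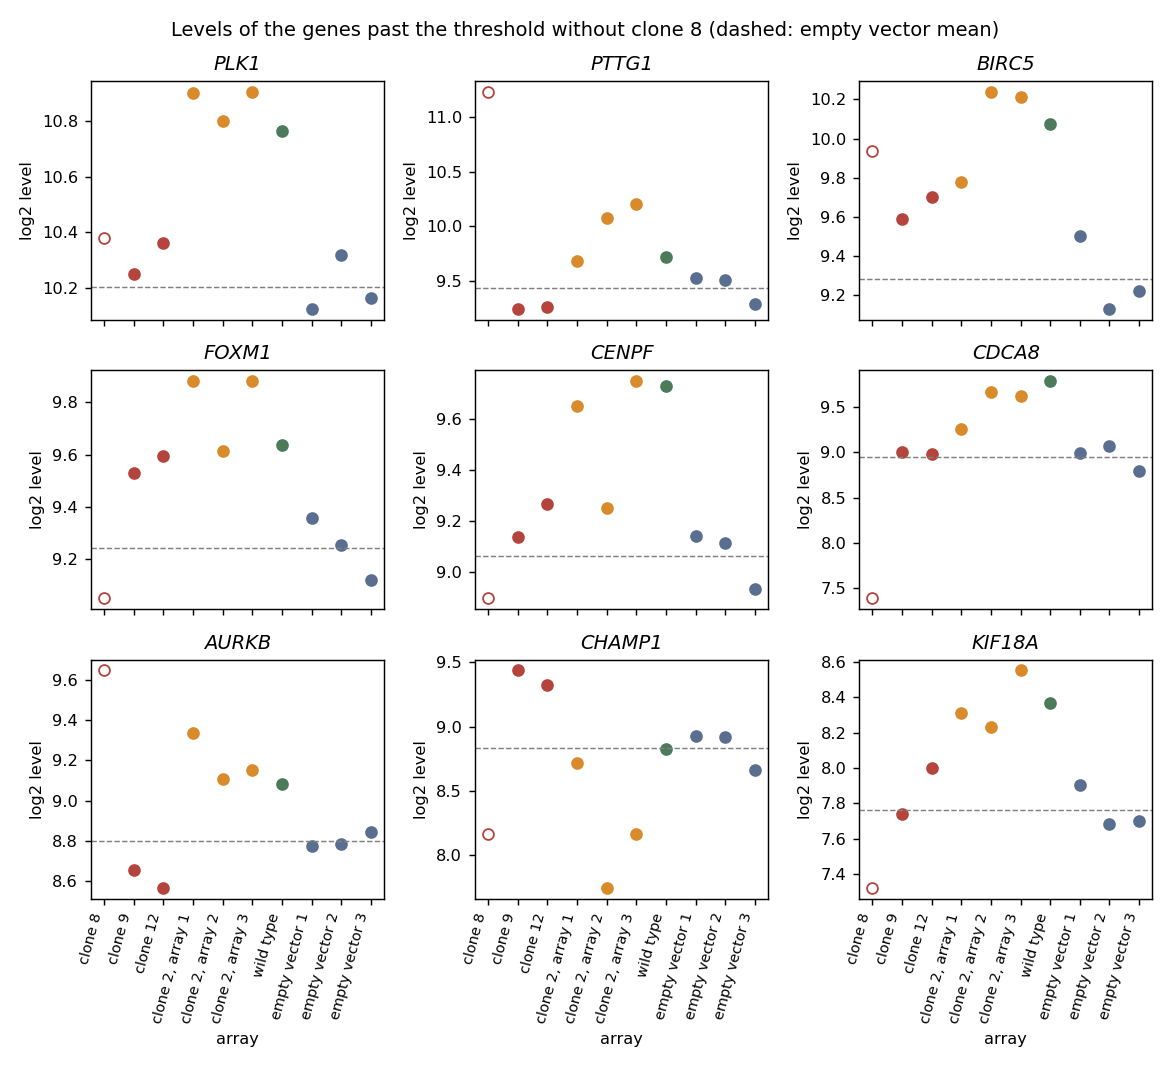
Log2 level (y axis, scaled for each gene) on each of the 10 arrays (x axis) of the 9 mitosis genes that passed in a comparison without clone 8, with hairpin clones left of wild type and empty vector clones, clone 8 as an open circle and the empty vector mean dashed. PLK1 is at 10.80 to 10.91 in clone 2 and at most 10.32 in the empty vector clones, and CHAMP1 is highest in clones 9 and 12 and low in arrays 2 and 3 of clone 2.

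The third comparison set the clones of construct V2LHS_62673 against the empty vector clones, which also served the comparison above. With clone 8, 21 of 48 genes were higher, with a median log2 difference of -0.05, 0 passed in limma (0% of all features), and BIRC5 alone had an unadjusted p under 0.05 (3.2% of features), at 0.46 (SE 0.17). With clones 9 and 12 alone, 37 of 48 were higher and the median was 0.11, beside 0.00 over all genes. Both clones lay above all 3 empty vector clones for 12 genes, an order that 15% of all genes have: FOXM1, ZWINT, INCENP, BIRC5, NDC80, SPC25, CHAMP1, KIF11, KIF15, TPX2, CKAP2 and MKI67. Both lay below for CCNB2, CDC25C, PTTG1, AURKB and KIF2C, an order that 17.3% of all genes have.

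CHAMP1 was the 1 gene of the 48 to pass, where 1.03% of all features did. It read 9.44 and 9.32 in clones 9 and 12, against 8.93, 8.92 and 8.66 in the empty vector clones and 8.82 in wild type cells. Relative to the empty vector clones it rose by 0.54 (SE 0.11, limma adjusted p = 0.0488). Clone 8, at 8.16, lay below all of them, so this construct gave its highest and one of its lowest levels. The call was lost without any of 4 clones, while the difference stayed between 0.45 and 0.60, with adjusted p of 0.193 and 0.219 without empty vector clone 2 or 3, 0.097 without clone 9 and 0.0509 without clone 12. It was also lost under quantile normalization, array quality weights, every array as a replicate and values relative to the median of all genes, with adjusted p of up to 0.356. Each of these gave 0 calls in limma, beside 0.241%, 0.804%, 0.179% and 0.545% of all features. In them 9, 8, 8 and 12 genes had an unadjusted p under 0.05, and the share of all features past it in these fits is not given. Without clone 8, 11 of the 48 genes had an unadjusted p under 0.05, all higher, where 16% of all features had one and 6.72% on the higher side. Of the colon epithelium markers 0 of 9 were higher in the mean of clones 9 and 12, with a median of -0.17 and none past the test. Taken alone, clone 9 had 0 of 9 higher (median -0.29) and clone 12 had 2 of 9 (median -0.04). In empty vector clones 1, 2 and 3 it was 1, 7 and 7 of 9. The part of these markers in the values of clones 9 and 12 was not tested.

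The fourth comparison tested the difference between the constructs. With all clones, clone 2 was higher for 46 of 48 genes, with a median log2 difference of 0.38 beside -0.045 over all genes, and 0 passed in limma (0% of all features), with 3 at an unadjusted p under 0.05 (2.22% of features). Against clones 9 and 12 alone the median was 0.14, with 37 of 48 higher, and 3 genes passed, where 2.15% of all features did, 0.938% higher and 1.21% lower. An unadjusted p under 0.05 was found for 11 genes higher and 1 lower, beside 9.13% and 6.07% of all features (15.2% in all). Clones 9 and 12 both lay below the mean of clone 2 for 31 genes, an order that 40.5% of all genes have. CHAMP1 was lower in clone 2 than in clones 9 and 12 by a log2 difference of -1.17 (SE 0.15, limma adjusted p = 0.00523), 2.25-fold. PTTG1 was higher by 0.73 (SE 0.14, adjusted p = 0.0302) in the same limma fit. With clone 8, which lay above every array of clone 2 for PTTG1, its difference was 0.075 (SE 0.72), and that of CHAMP1 was -0.77 (SE 0.47). AURKB, the Aurora B kinase of the chromosomal passenger complex, read 9.33, 9.11 and 9.15 on the arrays of clone 2, against 9.65, 8.66 and 8.57 in clones 8, 9 and 12 of the other construct.

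Clones 9 and 12 lay below the empty vector levels of AURKB, at 8.77, 8.78 and 8.84, and clone 2 above them. Wild type cells were also above these levels, at 9.08. The difference between the constructs was 0.59 (SE 0.12, limma adjusted p = 0.0402 without clone 8), yet clone 8 was higher than every array of clone 2 and with it the difference was 0.24 (SE 0.41). The call of CHAMP1 was kept without each further clone or array, with adjusted p of at most 0.0288. Those of PTTG1 and AURKB were not, with adjusted p of up to 0.0706 and 0.0904. Without empty vector clone 2, CHAMP1 was the 1 gene that passed (0.607% of all features), and without array 1 of clone 2 there were 10 (8.56%).

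The fifth comparison set wild type cells against the empty vector clones, the same 3 clones as above, and so asked how far the controls differ. Most of the mitosis genes were higher in wild type cells, with 45 of 48 above the empty vector mean and a median log2 difference of 0.29, beside -0.01 over all genes. Wild type cells lay above all 3 empty vector clones for 37 genes, an order that 30.1% of all genes have, and below all 3 for CDC25C alone (30.3% of all genes). For 18 genes they were above all other clones, against 11.5% of all genes. With clone 8 in the fit 0 passed in limma (0% of all features) and 4 had an unadjusted p under 0.05 (2.59% of features). Without it 5 genes rose, where 3.6% of all features passed and 1.7% on the higher side. An unadjusted p under 0.05 was found for 23, all higher, where 19.7% of all features had one and 10.3% on the higher side.

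CDCA8 was 9.78 in wild type cells, the highest of all arrays, and rose by 0.83 relative to the empty vector clones (SE 0.13, limma adjusted p = 0.0138 without clone 8). BIRC5, at 10.08, rose by 0.79 (SE 0.15, adjusted p = 0.0254 in the same limma fit), and its second probe, at 7.10, differed by 0.27. CENPF, the large coiled-coil protein of the G2 nucleus and outer kinetochore, was 9.73 in wild type cells, against 9.14, 9.11 and 8.93 in the empty vector clones, and rose by 0.67 (SE 0.13, adjusted p = 0.0262). Clones 8, 9 and 12 had 8.89, 9.14 and 9.27 for CENPF, and the arrays of clone 2 had 9.65, 9.25 and 9.75, so that arrays 1 and 3 of clone 2 were near wild type and array 2 was near clone 12. PLK1, at 10.76, rose by 0.56 (SE 0.13, limma adjusted p = 0.0402), and KIF18A, at 8.37, by 0.60 (SE 0.14, adjusted p = 0.046).

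With 1 wild type sample these p-values assume that it varies like the clones. Without empty vector clone 2 or 3, 0 of the 48 passed in limma (0.143% and 0.161% of all features). There 20 and 17 genes had an unadjusted p under 0.05. The share of all features past it in these fits is not given, and it was 19.7% with all 3 empty vector clones. Without empty vector clone 1, 11 passed (6.31%). Over all alternatives without clone 8 the difference stayed between 0.75 and 0.89 for CDCA8 and between 0.60 and 0.71 for CENPF.

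**Figure D4:**
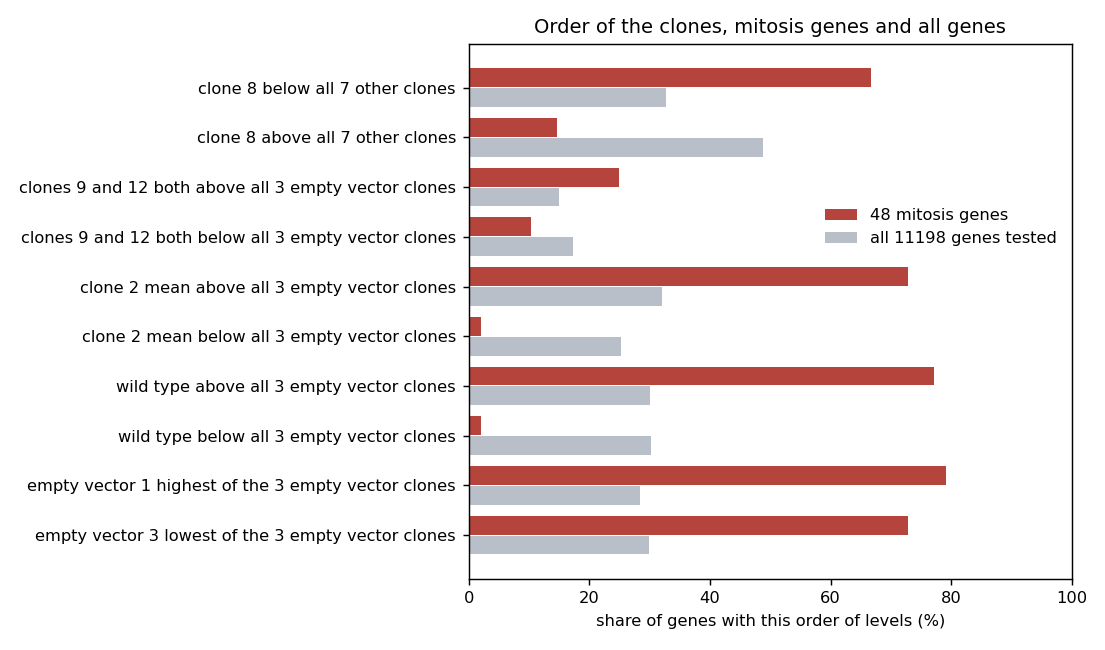
Share of genes (x axis, percent) whose samples stand in the order named on the y axis, for the 48 mitosis genes (red) and for all 11198 genes tested (grey). Wild type is above all empty vector clones for 77.1% of the mitosis genes, clone 2 for 72.9%, and clone 8 is below all 7 other clones for 66.7%.

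By role, 3 of the 10 genes of entry kinases, cyclins and FOXM1 were higher in clone 8 (median -0.45), 10 in clone 2 (median 0.18) and 8 in wild type cells (median 0.23). On arrays 1, 2 and 3 of clone 2 alone, 6, 8 and 9 of the 10 were higher, with medians of 0.06, 0.23 and 0.29. CCNA2, the S and G2 phase cyclin A2, read 10.32, 11.54 and 11.48 in clones 8, 9 and 12 and 11.42, 11.55 and 11.61 on the arrays of clone 2, against 11.85 in wild type cells and 11.65, 11.54 and 11.30 in the empty vector clones. Clone 8 was far below all others and wild type was highest, with the rest mixed. CCNB2 read 10.33, 11.11 and 11.12 in clones 8, 9 and 12 and 11.17, 11.25 and 11.45 on the arrays of clone 2, against 11.38 in wild type cells. CDC25C, a phosphatase that activates CDK1, read 7.70, 8.29 and 8.23 in clones 8, 9 and 12 and 8.31, 8.86 and 8.69 on the arrays of clone 2, against 8.26 in wild type cells and 8.39, 8.33 and 8.47 in the empty vector clones. Construct V2LHS_62673 was below all empty vector clones for CDC25C in every clone, and the arrays of clone 2 were on both sides. CDK1 itself read 8.32 in clone 8 and between 10.04 and 10.52 on the other 9 arrays, and CCNB1, AURKA, CDC25B and NEK2 did not pass in any comparison.

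The checkpoint genes were lower in clone 8 for all 6 measured, with a median of -0.72, and higher in clone 2 and in wild type cells for all 6, with medians of 0.27 and 0.31. Array 1 of clone 2 alone had 5 of the 6 higher (median 0.16). BUB3, a subunit of the mitotic checkpoint complex, read 10.75, 11.28 and 11.33 in clones 8, 9 and 12 and 11.30, 11.64 and 11.62 on the arrays of clone 2, against 11.43 in wild type cells and 11.38, 11.33 and 11.28 in the empty vector clones. Arrays 2 and 3 of clone 2 alone were above the controls. MAD2L1, which encodes the checkpoint effector MAD2, read 9.68, 9.90 and 9.72 in clones 8, 9 and 12 and 10.03, 10.59 and 10.42 on the arrays of clone 2, against 10.33 in wild type cells and 9.78, 9.94 and 9.58 in the empty vector clones. Clone 2 and wild type were above all empty vector clones, by 0.58 (SE 0.15) and 0.56 (SE 0.15) without clone 8, with limma adjusted p of 0.0617 and 0.0642, which miss the threshold.

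TTK, the MPS1 kinase that starts checkpoint signalling, read 8.04, 9.17 and 9.74 in clones 8, 9 and 12 and 9.84, 9.88 and 9.97 on the arrays of clone 2, against 10.13 in wild type cells and 9.79, 9.55 and 9.29 in the empty vector clones. Clones 8 and 9 were both below all controls, clone 9 by a small margin, and clone 12 was within the range of the empty vector clones. The kinase BUB1 and KNTC1, of the RZZ complex, read 9.03 and 8.41 in clone 8, against 10.53 to 10.93 and 9.17 to 9.44 on the other arrays.

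The anaphase onset genes were higher in clone 8, all 3 of them, with a median of 0.51. CDC20, the activator of the anaphase-promoting complex (APC/C), read 12.09, 11.57 and 11.63 in clones 8, 9 and 12 and 11.97, 11.72 and 11.85 on the arrays of clone 2, against 11.88 in wild type cells and 11.63, 11.67 and 11.44 in the empty vector clones. UBE2C, the ubiquitin-conjugating enzyme of the APC/C, read 9.34, 8.95 and 8.96 in clones 8, 9 and 12 and 9.08, 9.19 and 9.25 on the arrays of clone 2, against 9.13 in wild type cells and 9.00, 8.76 and 8.85 in the empty vector clones. For both, as for PTTG1, clone 8 was the highest sample, clone 2 and wild type lay above all empty vector clones, and clones 9 and 12 did not.

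Of the chromosomal passenger genes, INCENP, the scaffold of the complex, read 8.66, 8.09 and 8.16 in clones 8, 9 and 12 and 8.13, 8.06 and 8.04 on the arrays of clone 2, against 8.04 in wild type cells and 8.08, 7.90 and 7.94 in the empty vector clones. Clone 8 was again the highest, and the other arrays lay between 7.90 and 8.16. INCENP, AURKB and BIRC5 were thus higher in clone 8 than in all empty vector clones, at 8.66, 9.65 and 9.93, while CDCA8 of the same complex was its lowest array at 7.39.

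Among centromere and kinetochore genes, CENPI, of the inner centromere network, read 8.07, 8.85 and 8.92 in clones 8, 9 and 12 and 8.96, 8.89 and 8.94 on the arrays of clone 2, against 8.95 in wild type cells and 8.89, 8.44 and 8.39 in the empty vector clones. Clone 8 was lowest, and the other hairpin clones and wild type lay close to empty vector clone 1, above clones 2 and 3. The group was higher in clone 9 for 9 of 9 genes (median 0.17) and in clone 12 for 8 of 9 (median 0.35), beside 9 of 9 in empty vector clone 1 (median 0.18), with CHAMP1 the 1 gene past the test. CENPE, the kinesin that carries chromosomes to the metaphase plate, read 6.01 in clone 8, 7.75 in clone 9, 8.11 in clone 12 and 8.35 in wild type cells, against 7.83, 7.72 and 7.18 in the empty vector clones. NDC80, CENPA, NUF2 and SPC24 passed in no comparison, and NUF2, a partner of NDC80, was among the steadiest genes, between 7.53 and 7.93 on all 10 arrays.

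The 5 measured mitotic kinesins were all higher in clone 2 (median 0.39) and in wild type cells (median 0.46). KIF11, the kinesin that pushes spindle poles apart, read 8.67, 10.10 and 10.27 in clones 8, 9 and 12 and 10.39, 10.16 and 10.28 on the arrays of clone 2, against 10.38 in wild type cells and 10.09, 9.98 and 9.69 in the empty vector clones. Except clone 8, every hairpin array and wild type were above all empty vector clones, clone 9 narrowly. KIF14, a kinesin of cytokinesis, read 7.02 in clone 8, against 8.22 to 8.89 on the other arrays. KIF2C, which depolymerises microtubules at centromeres, read 7.62 in both clone 9 and clone 12 and 8.02 in clone 8, against 7.65, 7.69 and 7.62 in the empty vector clones.

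The spindle assembly genes had the lowest values of any role in clone 8, with all 6 lower and a median of -1.25. TPX2, which nucleates microtubules with Aurora A, read 9.61, 10.39 and 10.60 in clones 8, 9 and 12 and 10.85, 10.39 and 10.63 on the arrays of clone 2, against 10.56 in wild type cells and 10.38, 10.20 and 10.05 in the empty vector clones. HMMR, a microtubule-binding partner of TPX2, read 7.99, 9.57 and 9.84 in clones 8, 9 and 12 and 9.54, 9.60 and 9.58 on the arrays of clone 2, against 9.76 in wild type cells and 9.93, 9.57 and 9.35 in the empty vector clones. CKAP2, a spindle pole microtubule stabiliser, read 9.37, 10.70 and 10.60 in clones 8, 9 and 12 and 10.70, 10.57 and 10.68 on the arrays of clone 2, against 10.69 in wild type cells and 10.58, 10.34 and 10.28 in the empty vector clones. In each, clone 8 was far below all others, and outside it HMMR overlapped fully between the groups while the means of clones 9, 12 and 2 were above all empty vector clones for TPX2 and CKAP2. NUSAP1, which bundles microtubules at chromosomes, was furthest below in clone 8, at 8.45 against 10.39 to 10.73 elsewhere, a difference of -2.05 from the empty vector mean.

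For cytokinesis, PRC1, which bundles the central spindle, read 9.23, 8.72 and 8.88 in clones 8, 9 and 12 and 8.91, 8.98 and 9.21 on the arrays of clone 2, against 9.00 in wild type cells and 8.74, 8.68 and 8.47 in the empty vector clones. ANLN, the actin-binding protein anillin of the cleavage furrow, read 9.43, 10.42 and 10.77 in clones 8, 9 and 12 and 10.79, 10.68 and 10.89 on the arrays of clone 2, against 10.91 in wild type cells and 10.62, 10.53 and 10.36 in the empty vector clones. ECT2, the exchange factor that activates RhoA at the furrow, read 9.48, 9.90 and 9.99 in clones 8, 9 and 12 and 9.92, 9.87 and 10.09 on the arrays of clone 2, against 10.10 in wild type cells and 10.15, 10.07 and 9.75 in the empty vector clones. Clone 8 was the highest sample for PRC1 and the lowest for ANLN and ECT2, and ECT2 overlapped between all other groups.

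Clone 8 lay below all 7 other clones for 32 of the 48 genes, an order that 32.8% of all genes have, and above all 7 for 7 of them, CDC25B, CDC20, UBE2C, PTTG1, AURKB, INCENP and PRC1, an order that 48.8% of all genes have. It was over 1 log2 unit below the empty vector mean for 14 genes, against 11.7% of all genes, and over 1 above it for PTTG1 alone, against 3.96%. Across the 48 genes, which are not independent replicates and share the array, its difference had a Spearman correlation of -0.47 with gene length and -0.32 with level, beside -0.30 and -0.61 across all genes. Mesenchymal markers had a median of 7.43 in clone 8, against 6.71 to 6.93 elsewhere, with 4 of 4 tested above the empty vector mean. Leukocyte and endothelial markers were also higher there, at 5.89 and 6.31, as were 58.1% of all genes. The part of these markers, of gene length and of level in the values of clone 8 was not tested.

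The 27 measured genes with CHR letters had a median difference of 0.26 in clone 2 and 0.33 in wild type cells, and the 13 without had 0.25 and 0.28, medians that lie close together. In clone 8 the medians were -0.51 with and -0.13 without, with ranges that overlapped, from -2.05 to 0.69 and from -1.56 to 1.79.

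Other genes of the cell cycle, from lists around these 53, gave a background for the differences without clone 8, and the genes named from them here are those that passed, picked after their values were seen. G1/S genes, of replication licensing and E2F control, were higher in 20 of 20 in wild type cells (median 0.41) and in 19 of 20 in clone 2 (median 0.32), against the empty vector clones, and in 12 of 20 in clones 9 and 12 (median 0.02). Array 1 of clone 2 alone had 15 of 20 higher (median 0.13), and arrays 2 and 3 each had 20 of 20 (medians 0.36 and 0.50). Past the test were E2F3, MCM2, MCM4 and SLBP in wild type cells and MCM2 and MCM5 in clone 2. Of all features 3.6% and 3.74% passed there. None of the 20 passed in limma in clones 9 and 12, where 4 had an unadjusted p under 0.05, beside 16% of all features. MCM2, a subunit of the replicative helicase, rose by 0.65 in wild type cells and by 0.59 in clone 2 and was also higher in clone 2 than in clones 9 and 12, by 0.59 (limma adjusted p = 0.0402). Other outer kinetochore genes were higher in 10 of 10 in wild type cells (median 0.32), in 9 of 10 in clone 2 (0.19) and in 10 of 10 in clones 9 and 12 (0.22). ZW10, of the RZZ complex, passed in wild type cells at 0.55 and in clone 2 at 0.54 (limma adjusted p = 0.04 and 0.0421).

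Genes of the inner centromere network and CENP-A loading were higher in 11 of 11 in wild type cells (median 0.22), 9 of 11 in clone 2 (0.15) and 10 of 11 in clones 9 and 12 (0.09). None passed limma's test, and 4, 5 and 0 had an unadjusted p under 0.05, beside 19.7%, 18.2% and 16% of all features. Array 1 of clone 2 alone had 6 of 11 of these genes higher (median 0.02), and arrays 2 and 3 each had 10 of 11 (0.22 and 0.20). The APC/C subunits were split, with 8 of 12 higher in wild type cells, 7 in clone 2 and 6 in clones 9 and 12. On arrays 1, 2 and 3 of clone 2 alone, 3, 7 and 9 of the 12 were higher. In wild type cells ANAPC10 rose by 0.84 while ANAPC16 fell by 0.62. Of 13 other entry and exit genes 11 were higher in wild type cells and 11 in clone 2, and CDC25A, the phosphatase of S and M phase entry, rose by 0.70 in wild type cells and by 0.60 in clone 2, and CDCA2, a phosphatase targeting subunit, rose by 0.53 in wild type cells. GTSE1, a microtubule-binding protein of G2, rose by 0.47 in clone 2, among 20 other spindle genes of which 12 were higher there. Of the MuvB, B-MYB and DREAM regulators 6 of 8 were higher in wild type cells, in clone 2 and in clones 9 and 12 alike (medians 0.30, 0.12 and 0.15), and E2F4 and LIN9 rose by 0.49 and 0.70 in wild type cells. Cell cycle inhibitors were higher in 1 of 8 in wild type cells, with a median of -0.14, in 4 of 8 in clone 2 and in 2 of 8 in clones 9 and 12. None passed in limma, with 1, 2 and 0 at an unadjusted p under 0.05, beside 19.7%, 18.2% and 16% of all features.

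Over the hairpin clones without clone 8 against the controls, none of the genes on these lists passed in limma, as was so for 0% of all features. The gene with the smallest p of each list was CDC6 of replication licensing at 0.37, SGO1, the shugoshin that protects centromeric cohesion, at 0.33, CDC14A at 0.38, RBL1 at 0.34, HAUS8 of the augmin complex at 0.22, MIS18A of CENP-A loading at 0.13, ANAPC1 at -0.22 and the inhibitor CDKN1B at -0.18. CDC14A, CDC6, SGO1 and ANAPC1 had an unadjusted p under 0.05, 1 gene each on their lists, beside 6.47% of all features.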

How the data were processed

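RNA depleted of ribosomal RNA was measured on 10 exon arrays, per the labels' protocols. The deposited values are on a log2 scale, 1 per transcript, a base read from their range. How the authors corrected background, normalized and summarised probes is not stated, and no detection calls were used. Array medians were 7.34 to 7.62. Of 22011 probes 14432 had a single gene symbol, 2408 several and 5171 none, and 14404 were matched to RefSeq by gene identifier. Genes with a mean above 5.95, the 25th percentile, were kept, 11198 in all, plus the probe shared by LMNB1 and PCIF1.

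Linear models were fitted across all features with limma 3.58.1 in R 4.3.3, with Benjamini-Hochberg adjustment over all of them and a threshold of 0.05, once for the 4 hairpin against the 4 control samples and once for the 4 groups, and tested on simulated data. The 3 arrays of clone 2 were averaged first. Groups with 1 sample borrow the spread of the others, and p-values measure the spread between clones only. The 53 genes, roles and further lists were chosen with earlier results of these data known. Fits without clone 8 were planned, and the alternatives within them were added after seeing the data. Levels in every sample are given for 30 genes: those past the threshold in a comparison, those with the smallest p in each, and the highest mean level in each role. Promoters printed are those of the genes that passed and have an entry, plus CDC20 and TOP2A, a choice made after values were seen in place of the planned one by motif distance alone. Alternatives covered quantile normalization, centring, the filter, the choice of probe, the prior, array weights, the treatment of the repeated arrays and leaving out each sample.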

Additional observations from a re-analysis of the deposited data

Results flagged for a closer look

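Clone 8 lay apart from the other 3 hairpin clones by Dixon's test for 8 genes, its gap to the nearest clone taking up most of the group's range. Its log2 level was 10.32 for CCNA2, 8.07 for CENPI, 9.37 for CKAP2, 7.99 for HMMR, 8.67 for KIF11, 10.14 for TOP2A and 8.00 for ZWINT, each below the others, and 8.66 for INCENP, above them. These were 8 of 60 groups of 4 looked at, over 30 genes partly chosen by their p, and chance gives about 1 in 20. The outlying sample was clone 8 in all 8. By the same measure clone 8 was outlying in the hairpin group for 26% of all features tested and for 17 of the 48 genes, so the 8 genes are near the share of the whole array.

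The constructs differed for 3 genes in the limma test of clone 2 minus clones 9 and 12. CHAMP1 was lower in clone 2 by a log2 difference of -1.17, PTTG1 was higher by 0.73 and AURKB was higher by 0.59. With clone 8 in the fit none of the 3 passed, at -0.77, 0.075 and 0.24.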

How the results depend on the processing

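Without clone 8 several values moved. Hairpin clones minus controls had a median log2 difference over the 48 genes of 0.086 without it and -0.05 with it, and HMMR changed sign, at 0.013 without it and -0.41 with it. Genes past the limma threshold numbered 0 in every comparison with clone 8. Without it they numbered 1 for construct V2LHS_62673 minus empty vector (median 0.11, 1.03% of all features). They numbered 7 for clone 2 (3.74%) and 5 for wild type (3.6%), both minus empty vector. For clone 2 minus V2LHS_62673 they numbered 3 (median 0.14, 2.15% of all features). With clone 8 kept but array quality weights used they numbered 1, 6, 5 and 4 (median 0.17 for the last), beside 3.04%, 4.2%, 4.25% and 3.28% of all features, of which 0% passed with equal weights. Why the weights have this effect was not tested.

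Leaving out 1 sample in turn moved HMMR between -0.61 and 0.013 and gave 0 to 0 genes (lowest and highest median -0.13 and 0.086) for hairpin minus control, 0 to 1 (-0.13 to 0.11) for V2LHS_62673 minus empty vector, 0 to 7 for clone 2 minus empty vector (0.22 to 0.34), 0 to 5 for wild type minus empty vector (0.25 to 0.37) and 0 to 3 for clone 2 minus V2LHS_62673 (0.14 to 0.50). Starting without clone 8 these were 0 to 0, 0 to 6, 0 to 11, 0 to 11 and 1 to 10. The highest counts above 0 came, in this order, beside 4.5%, 9.12%, 6.31% and 8.56% of all features. The next counts, without clone 8, are for V2LHS_62673, clone 2 and wild type against empty vector and for clone 2 against V2LHS_62673. Quantile normalization gave 0, 3, 3 and 2 genes, beside 0.241%, 2.54%, 1.8% and 1.41% of all features. Every array as a replicate gave 0, 12, 0 and 4, beside 0.179%, 10.2%, 0.822% and 3.67%.

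The numbers of the 3 arrays of clone 2 and of the empty vector clones do not pair samples, with same-number correlations of 0.03, -0.15 and -0.24. A fit of these arrays with the number as a replicate block gave 11 genes, beside 8.47% of all features. Without the block the fit also gave 11 genes, beside 9.18%. These fits count the 3 arrays of clone 2 as separate samples, though they come from the same clone.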

Other observations

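The measured genes nearest CHAMP1 on chromosome 13 were looked at after its values were seen, and genes without a probe of their own were passed over. DCUN1D2 read 7.56, 7.46 and 7.39 on the arrays of clone 2, against 8.13, 8.28 and 8.38 in the empty vector clones, a log2 difference of -0.79 (limma adjusted p = 0.0215 without clone 8). It was lower than in clones 9 and 12, at 8.69 and 8.37, by -1.06 (adjusted p = 0.0143 in the same limma fit). CDC16, an APC/C subunit and the measured gene nearest CHAMP1, read 7.82, 7.87 and 8.19 in clone 2, against 8.48, 8.54 and 8.47 in the empty vector clones, and GAS6 read 8.33, 8.69 and 8.65, against 8.95, 9.05 and 9.19. Their differences of -0.54 and -0.51 did not pass (limma adjusted p = 0.0742 and 0.0776). For these 3 genes, SLC9D1 (-0.38) and TMEM255B (-0.22) the mean of clone 2 was below every empty vector clone, an order that 25.2% of all genes have, though array 2 overlapped for TMEM255B. ATP4B, of low signal, differed by 0.10. In clones 9 and 12 DCUN1D2, CDC16 and GAS6 differed from the empty vector clones by 0.27, 0.06 and -0.26, none past the test.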
